A study of Mus musculus with 2 samples.

Results

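DNA replication and S-phase genes were followed in single cells of normal mouse urothelium organoids grown under proliferative (P) and differentiated (D) conditions. The set was a fixed list of 32 gene symbols out of 31053 gene identifiers in the count matrices, and each of the 32 had UMIs (unique molecular identifiers, each standing for 1 captured transcript) in both libraries. The list held 8 genes of the replicative helicase (Mcm2, Mcm3, Mcm4, Mcm5, Mcm6, Mcm7, Cdc45 and Gins2) and 2 origin licensing factors (Cdc6 and Cdt1). It further held 5 genes of the priming polymerase, the sliding clamp and its loader (Pola1, Prim1, Pcna, Rfc2 and Rfc4) and 2 enzymes that finish Okazaki fragments (Fen1 and Lig1). Nucleotide supply and uracil removal were represented by Tyms, Rrm1, Rrm2, Dut and Ung, chromatin and histone supply by Chaf1b, Uhrf1, Hells, Cdca7 and Slbp, the replication checkpoint and licensing control by Clspn and Dtl, and entry into S phase by Ccne1, Ccne2 and E2f1.

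Cells copy their DNA once per division. In G1, the origin recognition complex, Cdc6 and Cdt1 load the Mcm2 to Mcm7 ring onto origins, and in S phase Cdc45 and the GINS complex turn the ring into an active helicase that unwinds the template for the polymerases and the Pcna clamp. Transcription factors of the E2F family, released by cyclin E and cyclin D kinases, switch on many of these genes before S phase. Mitotic genes such as cyclin B and the kinesins follow later, in G2 and M. In the normal bladder the urothelium turns over very slowly, whereas in organoid culture basal cells divide under growth factors.

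Both libraries came from wild-type (WT) C57BL/6 mice aged 8 to 10 weeks, and no sorting step is described for them. P organoids were kept in complete medium with EGF, the TGF-beta receptor inhibitor LY2157299, Noggin, WNT3A and RSPO1, and D organoids in medium lacking them. There was 1 library per condition, so differences between P and D could not be set against a spread between replicates: all intervals given are exact 95% intervals that cover counting error only, and no test between conditions was possible. Cells with over 800 genes and at most 12% mitochondrial UMIs were kept, which left 6818 of 8194 barcodes in P and 4896 of 6975 in D, with 26681469 and 20305621 UMIs and medians of 3405.5 and 3227.5 UMIs per cell. Kept cells of the 2 libraries shared 6 barcode sequences. All 8 urothelial markers were detected in both libraries, whereas the 4 haemoglobin genes were at 0. The 6 fibroblast markers summed to 53 UMIs in P (3 genes above 0) and 1270 in D (5 above 0, Col1a2 at 0), of which Dcn alone gave 1234 in D. The 6 leukocyte markers summed to 569 and 542 UMIs (Cd3e at 0 in both), but Cd68 went from 545 UMIs to 132 and Laptm5 from 7 to 400. The 4 endothelial markers held 138 and 67 UMIs, with Cdh5 and Kdr at 0 in both. The part of these cells in the results below was not tested. Ribosomal protein genes took 37.4% of the UMIs in P and 21.4% in D, and the median gene (of 8939 that passed 100 UMIs on both sides) was higher in D by 0.42 (log2 of CPM, UMIs per 1000000 UMIs of the library). Values relative to that median are therefore given beside the plain ones.

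E2F-type octamers were more frequent in the promoter sequences of the list than among all genes. E2F factors switch on many of these genes, as given above, so the choice of genes was not independent of this feature. RefSeq promoter windows (GRCm38.p6, 250 bases before to 50 after the transcription start) were matched by symbol for 28 of the 32 genes (all but Mcm4, Gins2, Rfc2 and Ccne2) and were searched on both strands for the E2F-type octamers TTTCCCGC, TTTGGCGC, TTTCGCGC and TTTGCCGC. Matches were present in 13 of the 28 genes (46.4%), against 2.99% of the 19407 genes with a window. None of the 35 mitotic genes with a window held one. For Mcm3, Cdt1, Clspn and Lig1 the matches lay only in the 50 bases after the start. The pentamer CCAAT, the core of the NF-Y site, was present in 53.6% of the replication genes, 80.0% of the mitotic genes and 41.8% of all genes. Windows of the list were also richer in G and C (median 63.2%, all genes 55.3%), and a match describes letters and is no evidence of binding. The 250 bases upstream of 4 genes are printed because all 4 carry an octamer, shown in capitals, while their levels behaved differently between P and D. Mcm6, with 3 matches of which the first 2 overlap, had the highest ratio of D to P in the list, Dtl and Uhrf1 were among the 3 lowest, and Hells lay between.
Mcm6, chr1:128359706-128359955, minus strand: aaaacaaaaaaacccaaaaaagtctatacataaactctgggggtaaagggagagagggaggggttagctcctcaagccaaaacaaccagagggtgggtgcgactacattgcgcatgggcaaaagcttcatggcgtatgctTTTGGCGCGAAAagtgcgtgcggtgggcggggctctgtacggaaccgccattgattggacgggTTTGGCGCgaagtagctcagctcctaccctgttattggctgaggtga
Dtl, chr1:191575545-191575794, minus strand: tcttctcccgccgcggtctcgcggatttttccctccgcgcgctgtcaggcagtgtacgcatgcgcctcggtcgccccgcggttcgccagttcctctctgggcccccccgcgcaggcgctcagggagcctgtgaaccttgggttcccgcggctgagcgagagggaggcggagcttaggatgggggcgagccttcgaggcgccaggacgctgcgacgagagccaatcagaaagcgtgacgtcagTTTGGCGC
Uhrf1, chr17:56304063-56304312, plus strand: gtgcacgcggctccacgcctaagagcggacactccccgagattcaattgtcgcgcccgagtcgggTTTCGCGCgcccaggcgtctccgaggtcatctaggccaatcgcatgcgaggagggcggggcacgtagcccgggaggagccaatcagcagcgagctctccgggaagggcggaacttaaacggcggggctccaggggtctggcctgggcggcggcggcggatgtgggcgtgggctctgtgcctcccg
Hells, chr19:38930740-38930989, plus strand: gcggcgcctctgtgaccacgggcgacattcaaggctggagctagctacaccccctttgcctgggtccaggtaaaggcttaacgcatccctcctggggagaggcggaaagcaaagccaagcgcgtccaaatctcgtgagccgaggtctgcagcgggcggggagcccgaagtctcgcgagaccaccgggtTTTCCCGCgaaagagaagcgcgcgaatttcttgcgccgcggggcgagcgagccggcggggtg
The octamer of Dtl began 8 bases before the start site, that of Hells 62 bases before it and that of Uhrf1, found at the downstream one of its 2 start sites, 185 bases before it. The 13 genes with an octamer spanned nearly the whole range of ratios of D to P, from -2.01 to 0.61 (median log2 -0.67), and the 15 without one from -2.06 to 0.56 (median -0.57).

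Summed over the list, replication transcripts were only slightly less abundant in D than in P organoids, but single genes moved far apart. The 32 genes together held 8254 UMIs in P (309 CPM) and 5687 in D (280 CPM), a log2 ratio of -0.14 (-0.19 to -0.09). The median gene had a log2 ratio of D to P of -0.65, and the range ran from -2.06 for Ung to 0.61 for Mcm6. Of the 32 genes, 22 were lower and 10 higher in D. Among 27 genes that reached 100 UMIs when both libraries were added up, 18 were lower, against 22.6% of the 10719 genes of that depth. The interval lay below 0 for 18 genes and above 0 for 5 (Mcm6, Pcna, Rrm1, Dut and Slbp). The shares of all genes with such intervals were not computed. A ratio at least 2-fold lower in D was reached by 10 genes, namely Ung, Dtl, Uhrf1, Ccne1, Rfc4, Prim1, Cdca7, Rrm2, Cdt1 and E2f1. Among the 27 deeper genes it was 8, where 4.73% of all genes were at least 2-fold lower. No gene of the list was 2-fold higher in D, against 13.5% of all genes. Relative to the median of all genes, 30 of the 32 were lower in D and 17 at least 2-fold lower, with Mcm6 and Pcna as the exceptions. That scaling puts the median gene at no change by definition, and the shares of all genes on it were not computed. The 41 mitotic genes used as a comparison list went from 12520 UMIs (469 CPM) to 1471 (72.4 CPM). Their median log2 ratio was -2.91, and 40 of the 41 were at least 2-fold lower.

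**Figure D1:**
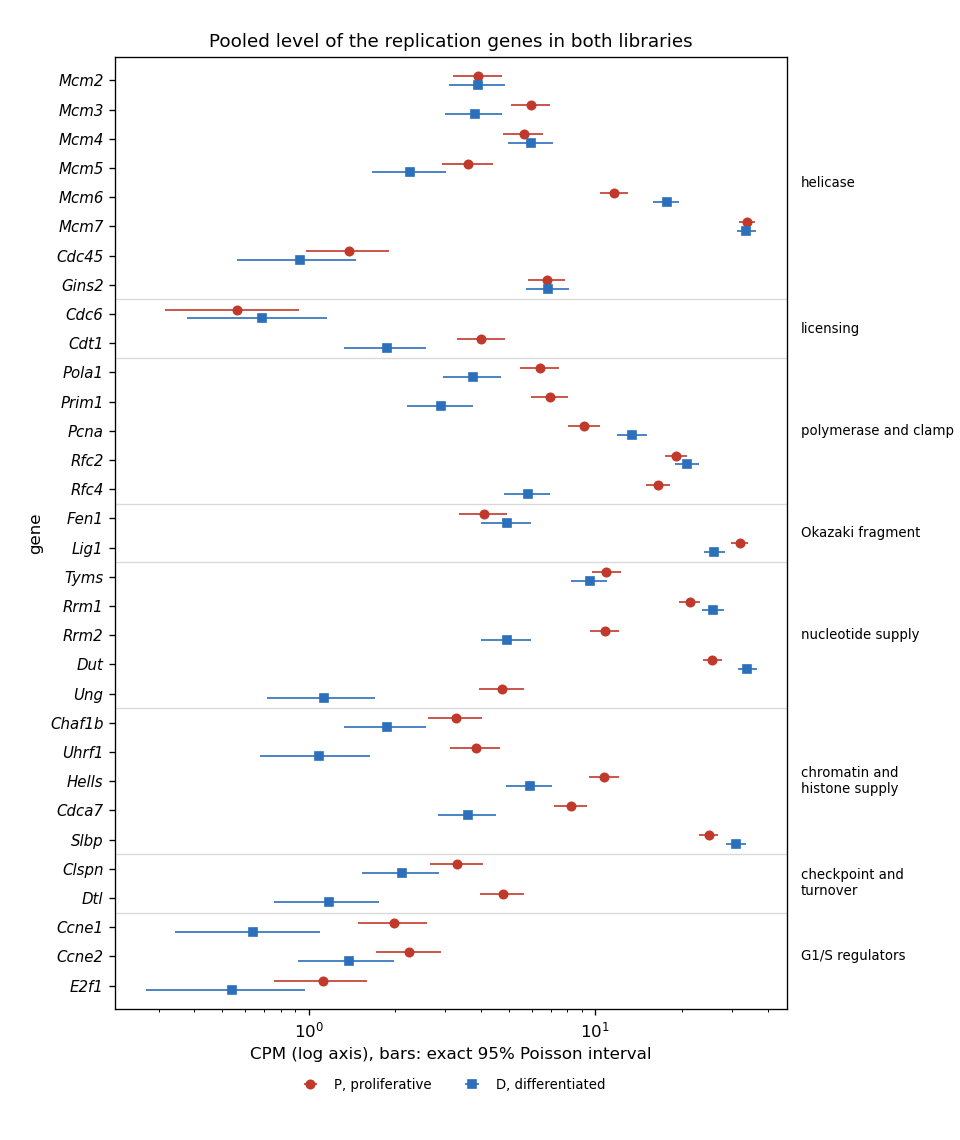
Level of each of the 32 genes in P (circles) and D (squares) as CPM over all kept cells on a log axis, with exact 95% Poisson intervals and grouped by role. Ung, Rfc4, Dtl and Uhrf1 are clearly separated with P above D, whereas the 2 libraries overlap for Mcm2, Mcm4, Mcm7 and Gins2, and D lies above P for Mcm6 and Pcna.

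The helicase genes, taken as a sum, differed between conditions by less than their counting error. Their sum was 72.8 CPM in P and 75.1 in D, and the middle of their log2 ratios lay at -0.01. Relative to the median of all genes it lay at -0.43, with 7 of the 8 genes lower in D and 2 at least 2-fold lower (shares of all genes not computed). Mcm7, the subunit with the most UMIs in these 3′ libraries, was at 33.9 CPM (31.7 to 36.2) in P and 33.6 (31.2 to 36.3) in D. Mcm2 was at 3.90 in P and 3.89 in D. The other subunits of the ring did not move together. Mcm6 was at 11.7 CPM (10.4 to 13.0) in P and 17.7 (15.9 to 19.7) in D, a log2 ratio of 0.61 (0.38 to 0.83) that remained above 0 relative to the median of all genes (0.18). Mcm3 was at 5.96 in P (5.07 to 6.96) and 3.79 in D (2.99 to 4.74), and Mcm5 at 3.60 (2.91 to 4.39) and 2.27 (1.66 to 3.02), so that both were lower in D beyond counting error, with log2 ratios of -0.65 and -0.67. Mcm4 (5.62 and 5.96) and the GINS subunit Gins2 (6.78 and 6.85) differed by less than their counting error on the plain scale. Relative to the median of all genes, Mcm4 (-0.34), Mcm7 (-0.43) and Gins2 (-0.41) lay below the plain interval of each. Cdc45, needed to activate the ring, was close to the limit of detection with 37 UMIs in P and 19 in D. Subunits of 1 complex thus had log2 ratios from -0.67 to 0.61.

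Licensing and entry genes were sparse. Cdt1, which brings the ring to origins, was at 4.01 CPM (107 UMIs, 3.29 to 4.85) in P and 1.87 (38 UMIs, 1.32 to 2.57) in D, 2.14-fold lower in D (1.47 to 3.19). For Cdc6, its partner in loading, 15 UMIs were counted in P against 14 in D, and the ratio was not resolved (log2 0.29, -0.87 to 1.45). Both cyclin E genes, which activate Cdk2 at the start of S phase, were lower in D. Ccne1 had 53 UMIs in P and 13 in D (log2 -1.63, -2.63 to -0.74), and Ccne2 had 60 and 28 (log2 -0.71, -1.41 to -0.04). E2f1, an activator of the E2F family, had 30 UMIs in P and 11 in D (log2 -1.05, -2.20 to -0.02). The intervals of Ccne2 and E2f1 reached nearly to 0.

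At the fork, the clamp and 1 subunit of its loader went in opposite directions. Pcna, the sliding clamp that tethers the polymerases, was at 9.14 CPM (8.03 to 10.4) in P and 13.4 (11.9 to 15.1) in D, higher in D by a log2 ratio of 0.56 (0.30 to 0.81) and by 0.13 relative to the median of all genes. The clamp loader subunit Rfc4 went the other way, from 16.6 in P (15.1 to 18.2) to 5.81 in D (4.81 to 6.96), 2.85-fold lower (2.32 to 3.52). Rfc2, a second subunit of the same loader, was at 19.1 and 20.9, within its counting error (relative to the median of all genes -0.29, below that interval). The other loader subunits, Rfc1, Rfc3 and Rfc5, had log2 ratios of 0.00, -0.06 and -0.15 with intervals that included 0. The primase subunit Prim1, which lays the RNA primer, was 2.39-fold lower in D (6.93 and 2.91 CPM, 1.77 to 3.26), and Pola1, the catalytic subunit of the polymerase that extends the primer, was 1.71-fold lower (6.41 and 3.74, 1.30 to 2.27). Of the enzymes that join Okazaki fragments, the ligase Lig1 was slightly lower in D (31.97 and 26.05 CPM, 1.23-fold, 1.10 to 1.37), and the flap endonuclease Fen1 was at 4.09 and 4.92 with overlapping intervals.

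The genes of nucleotide supply divided as well. Rrm2, the small subunit of ribonucleotide reductase that limits the enzyme to S phase, was at 10.8 CPM (9.58 to 12.1) in P and 4.92 (4.01 to 5.99) in D, 2.19-fold lower (1.74 to 2.78). Its partner Rrm1, the large subunit, was at 21.4 in P (19.6 to 23.2) and 25.8 in D (23.6 to 28.1), a log2 ratio of 0.27 (0.10 to 0.44) that became -0.15 relative to the median of all genes. Dut, which degrades dUTP, was at 25.6 in P (23.8 to 27.6) and 33.9 in D (31.4 to 36.6), with a log2 ratio of 0.40 that became -0.02 on the relative scale. Thymidylate synthase, Tyms, was at 10.9 and 9.55 with overlapping intervals. Ung, the glycosylase that removes uracil from DNA, was the lowest of the list in D relative to P, at 4.72 CPM (126 UMIs, 3.93 to 5.62) in P and 1.13 (23 UMIs, 0.72 to 1.70) in D, 4.17-fold lower (2.66 to 6.82). Ung and Dut both keep uracil out of DNA, and their ratios lay at opposite ends of the list.

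Of the genes that rebuild chromatin behind the fork, 4 of 5 were lower in D, where 22.6% of all genes were. Uhrf1, which recruits the maintenance DNA methyltransferase to newly copied DNA, was at 3.82 CPM (102 UMIs, 3.12 to 4.64) in P and 1.08 (22 UMIs, 0.68 to 1.64) in D, 3.53-fold lower (2.21 to 5.88). The remodeller Hells was at 10.8 and 5.91 (1.82-fold, 1.47 to 2.27), and its partner Cdca7 at 8.21 and 3.60 (2.28-fold, 1.74 to 3.02). The histone chaperone subunit Chaf1b was at 3.26 and 1.87 (1.74-fold, 1.18 to 2.62). Slbp, which binds the stem-loop of histone mRNAs, was at 24.8 in P (23.0 to 26.8) and 31.1 in D (28.7 to 33.6), with a log2 ratio of 0.32 that became -0.10 relative to the median of all genes. Dtl, the substrate receptor that targets Cdt1 for destruction at Pcna-loaded DNA, was at 4.76 CPM (127 UMIs, 3.97 to 5.66) in P and 1.18 (24 UMIs, 0.76 to 1.76) in D, 4.03-fold lower (2.59 to 6.52). The checkpoint adaptor Clspn was at 3.30 and 2.12 (1.56-fold lower, 1.07 to 2.30).

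A wider list of 74 other replication genes (origin recognition, further polymerases, single-strand binding, flap processing, repair at forks) did not have the same median. Enough UMIs (100 when both libraries were added up) were present for 50 of them, whose log2 ratios of D to P centred on 0.09, and 6 of the 50 were at least 2-fold lower in D (all genes 4.73%) and none higher (all genes 13.5%). Over all 74 genes, those with few UMIs included, the median was -0.15 and 18 were 2-fold lower. The 4 lowest were Ccna2 (cyclin A2, log2 -2.73, 192 UMIs in P and 22 in D), Tk1 (thymidine kinase, -2.54, 161 and 21 UMIs), Pclaf (a Pcna-binding factor, -1.97, 390 and 76 UMIs) and Pold4 (the small subunit of polymerase delta, -1.64, 4314 and 1056 UMIs). The 4 highest were the origin recognition subunit Orc2 (0.94), Rrm2b, the subunit of ribonucleotide reductase used outside S phase (0.87), the deubiquitinase Usp1 (0.75) and Pole3, a subunit of polymerase epsilon (0.59). The median became -0.34 relative to the median of all genes.

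Cells were next separated by mitotic transcripts, using the 41 mitotic genes, none of which belongs to the replication list. In P, 679 of 6818 cells (9.96%, 9.26 to 10.7) had UMIs of at least 2 mitotic genes, 1361 had 1 and 4778 (70.1%) had none. In D, 83 of 4896 cells (1.70%, 1.35 to 2.10) had at least 2, 686 had 1 and 4127 (84.3%) none. Cells with at least 2 are called mitotic below, a range of a count and no cell type, and they were deeper than cells with none, with medians of 3962 against 3343.5 UMIs in P and 6008 against 3120 in D. In mitotic cells of P the replication list summed to 812 CPM (781 to 844), against 277 in cells with 1 mitotic gene and 230 in cells with none (223 to 237), a 3.53-fold difference between the outer classes. In D it summed to 566 (509 to 629), 274 and 271 (263 to 279), a 2.09-fold difference. Mitotic cells carried 11.9% of all UMIs of P but 31.3% of its replication UMIs, and 3.03% and 6.14% in D.

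Within P, nearly every gene of the list was higher in mitotic cells. The median log2 ratio of mitotic cells to cells without a mitotic gene was 1.99, and 28 of 32 genes were at least 2-fold higher. Of the 19 genes that reached 100 UMIs in these cells, 17 were 2-fold higher, against 4.11% of all 9000 genes of that depth, whose median was 0.15. The largest ratio was that of Uhrf1, at 21.0 CPM in mitotic cells (67 UMIs, 16.3 to 26.7) and 1.06 in cells without a mitotic gene (19 UMIs, 0.64 to 1.66), a 19.8-fold difference (log2 4.31, 3.56 to 5.13). Mcm5 (17.3 and 1.23 CPM, 14.1-fold), Cdc45 (6.91 and 0.50, 13.8-fold), Mcm3 (28.3 and 2.62, 10.8-fold) and Clspn (15.4 and 1.62, 9.51-fold) followed with E2f1 (4.08 and 0.28, on 13 and 5 UMIs). For Uhrf1, Cdc45, Mcm5, Mcm3 and Clspn, the 679 mitotic cells held most of the UMIs of P (55.7% to 65.7%). Slbp (34.8 and 23.1, log2 0.59), Cdca7 (10.7 and 7.14, log2 0.58, -0.01 to 1.14), Ung (5.65 and 4.30, log2 0.40, -0.43 to 1.15) and Ccne1 (1.88 and 2.34, log2 -0.31, -1.84 to 0.93) stayed below 2-fold, and for the last 3 the interval included 0.

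Mitotic cells of D held few UMIs, and their ratios were correspondingly wide. The median log2 ratio over the 31 genes with UMIs in these 83 cells was 1.38, Ccne1 had none, and the interval lay above 0 for 14 genes. Of the 11 genes that reached 100 UMIs in these cells, 6 were at least 2-fold higher, against 1.15% of all genes. Uhrf1 was again the highest, at 16.2 CPM in mitotic cells (10 UMIs) and 0.56 in cells without a mitotic gene (9 UMIs). Mcm7 was at 84.4 (63.0 to 111) and 32.4 (29.6 to 35.3), Rrm1 at 63.3 (45.0 to 86.5) and 25.4, and Hells at 26.0 (14.8 to 42.2) and 5.55. For Dut, mitotic cells stood 4.94-fold higher in P (78.8 and 16.0 CPM), but in D they were at 42.2 (27.6 to 61.8) and 33.3 (30.5 to 36.2), within counting error.

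**Figure D2:**
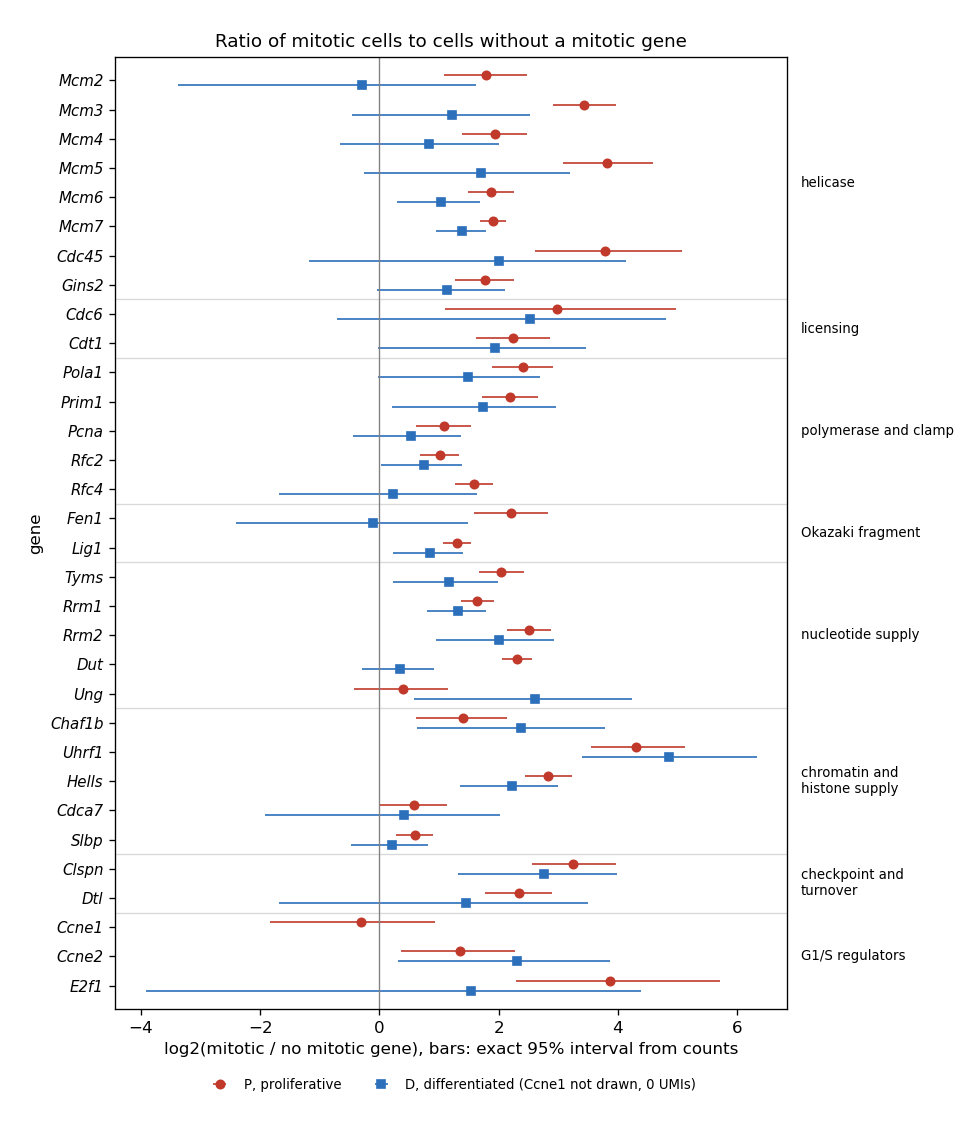
Log2 ratio of mitotic cells (at least 2 mitotic genes) to cells without a mitotic gene for each of the 32 genes, in P (circles) and D (squares), with exact 95% intervals from counts. In P all genes but Ccne1 lie to the right of 0, with Uhrf1 farthest at 4.31, and the intervals of D are wide because only 83 cells of that library are mitotic.

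When only cells without a mitotic gene were compared, the list was no longer lower in D on the plain scale. It summed to 230 CPM in P and 271 in D (log2 0.23, 0.17 to 0.30), and the median log2 ratio of D to P was 0.26, where all genes (8119 with at least 100 UMIs in these cells of each library) had a median of 0.44. At least 2-fold lower were 4 genes, Ccne1, Ung, Dtl and Rfc4, and at least 2-fold higher were 3, Dut, Cdc6 and E2f1, the last 2 on 5 UMIs in P and 9 in D each. Relative to the median of all genes the median of the list turned to -0.18, with 10 genes at least 2-fold lower and none 2-fold higher. The shares of all genes on that scale were not computed. On the plain scale, of the 20 genes that reached 100 UMIs in these cells, 1, Rfc4, was 2-fold lower, against 3.68% of all 10131 genes. Another 1, Dut, was 2-fold higher, against 14.9%. All 8 helicase genes were higher in D on the plain scale (log2 0.32 to 0.98), with the interval above 0 for Mcm6 and Mcm7 only. Their median of 0.50 was near that of all genes (0.44), and the share of all genes higher in D was not computed. Mcm3, Mcm7 and Gins2 turned below 0 relative to the median of all genes. Mcm6 went from 8.03 CPM in P (6.77 to 9.46) to 15.9 in D (14.0 to 18.0), and Dut from 16.0 (14.2 to 17.9) to 33.3 (30.5 to 36.2), and both stayed higher in D relative to the median of all genes (0.54 and 0.62).

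A second set of genes stayed lower in D without the mitotic cells. Ung was at 4.30 CPM (77 UMIs) in P and 1.06 (17 UMIs) in D, a log2 ratio of -2.02 (-2.87 to -1.25) next to -2.06 over all cells. Rfc4 was at 13.2 and 5.55 (log2 -1.25, -1.62 to -0.90), Dtl at 3.24 and 1.18 (-1.45, -2.28 to -0.68) and Ccne1 at 2.34 and 0.50 (-2.23, -3.53 to -1.12). Cdca7, Chaf1b, Cdt1, Prim1 and Rrm2 had log2 ratios from -0.96 to -0.67 with intervals below 0. In contrast, the ratio of Hells went from -0.86 over all cells to 0.01, that of Clspn from -0.64 to 0.06, that of Mcm3 from -0.65 to 0.41 and that of Mcm5 from -0.67 to 0.70. The 9 genes with intervals below 0 in both comparisons were therefore Ccne1, Ung, Dtl, Rfc4, Cdca7, Chaf1b, Cdt1, Prim1 and Rrm2. Of these, 6 (Ccne1, Ung, Rfc4, Prim1, Chaf1b and Rrm2) had no E2F-type octamer, as did 15 of the 28 genes with a window. In cells without a mitotic gene the interval lay above 0 for 8 genes of the list. How many of all genes had intervals below or above 0 was not computed.

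**Figure D3:**
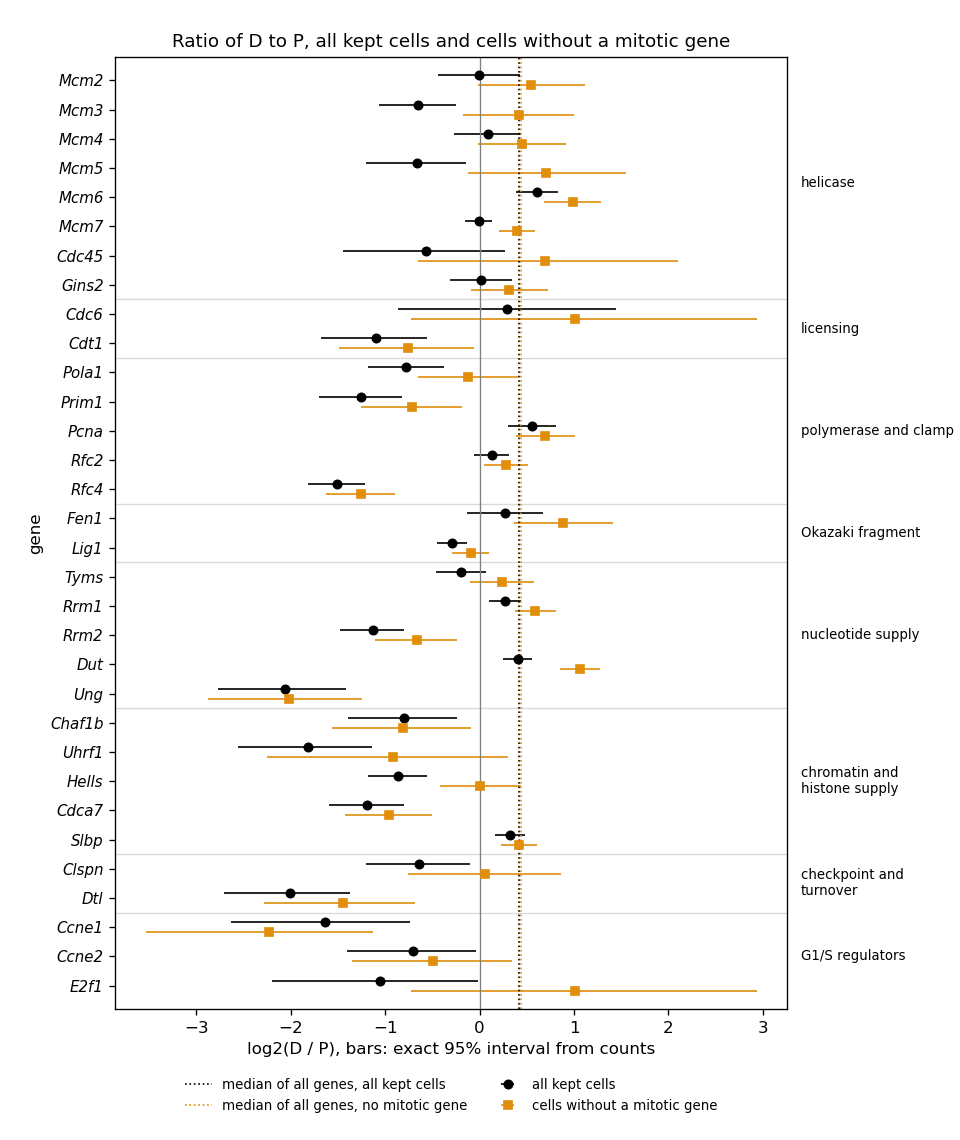
Log2 ratio of D to P for each of the 32 genes over all kept cells (circles) and over cells without a mitotic gene (squares), with exact 95% intervals from counts, and dotted lines at the median of all genes in each comparison (0.42 and 0.44). Most squares lie to the right of their circles, with Mcm5 going from -0.67 to 0.70, whereas those of Ung (-2.06 and -2.02) and Rfc4 (-1.51 and -1.25) nearly coincide.

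Replication transcripts were also unevenly spread along the basal axis of the urothelium. Cells of each library were ranked by the share of their UMIs in 8 basal genes (Krt5, Krt14, Krt15, Trp63, Itga6, Itgb4, Col17a1 and Cd44) and split into 3 equal ranges, which are not cell types. The ranges were cut within each library and cover unlike shares. The basal-high range of P began at 0.96%, whereas the basal-low range of D reached up to 1.35%. Krt15 alone went from 54022 UMIs in P to 149115 in D. Ranges of the same name are therefore not matched between P and D. In P the list summed to 210 CPM in the basal-low range (201 to 220), 294 in the middle and 437 in the basal-high range (423 to 451). In D the sums were 248 (237 to 260), 275 and 331 (316 to 347). The median log2 ratio of basal-high to basal-low cells was 1.31 in P and 0.51 in D. Of the 18 genes that reached 100 UMIs in these ranges of P, 10 were at least 2-fold higher in basal-high cells, against 6.12% of all genes, and of 9 such genes in D none was, against 2.65%. Over all 32 genes, sparse ones included, 18 in P and 9 in D were at least 2-fold higher, and 1 in D was 2-fold lower. The interval lay above 0 for 25 genes in P and 14 in D. No share over all genes was computed without the minimum of 100 UMIs. Mitotic cells made up 5.46% of the basal-low, 11.6% of the middle and 12.9% of the basal-high range of P, against 1.72%, 2.02% and 1.35% in D. Without cells that had any mitotic gene, the median of P was 0.68. Cdca7 had the largest resolved ratio among cells of P without a mitotic gene, at 12.3 CPM in basal-high cells (63 UMIs) and 2.19 in basal-low cells (15 UMIs), a log2 ratio of 2.49 (1.66 to 3.41). Its ratio in the same cells of D was 2.07 (0.88 to 3.42), on 26 and 8 UMIs. Dut (26.2 and 8.33 in P, log2 1.65), Pola1 (6.26 and 1.61, log2 1.96) and Hells (8.80 and 3.07, log2 1.52) were also higher in basal-high cells of P without a mitotic gene. Lig1, Slbp, Rfc4, Fen1 and Pcna were among the genes within counting error there. The interval lay above 0 for 15 of the 31 genes with a ratio in these cells, and the share over all genes was not computed for them.

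In single cells the list was sparse, so cells were thinned to 2100 UMIs each (6638 cells of P and 4417 of D, with 180 and 479 shallower cells left out) before genes were counted. At least 1 of the 32 genes was seen in 41.1% of cells in P (39.9 to 42.3) and 43.2% in D (41.7 to 44.7). The share was 40.9% in the 2340 cells of D with a uroplakin UMI, with a median depth of 3708.5 UMIs before thinning against 3395 for all cells of D. Whether these cells lack replication was not tested. Uroplakin genes, which mark luminal cells, were at 925 CPM in the mitotic cells of D and 1244 in its cells without a mitotic gene. The part of free RNA and doublets in these levels was not tested. No class known to lack replication was available, so the level that free RNA gives was not measured and nothing was read from single genes. At least 3 genes were seen in 283 cells of P (4.26%, 3.79 to 4.78) and 98 of D (2.22%, 1.80 to 2.70), against 1.67% (1.19 to 2.27) of the uroplakin-positive cells of D, and at least 5 genes in 74 cells of P (1.11%) and 19 of D (0.43%), against 0.085% of the uroplakin-positive cells. Without thinning, the order turned, with 9.84% of cells of P and 10.3% of D at 3 genes or more. Most cells with at least 3 genes had exactly 3, 157 of the 283 in P and 70 of the 98 in D.

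Mitotic classes were counted anew in the thinned cells, so a cell without a mitotic gene may have lost its mitotic UMIs by thinning. The share of cells with at least 3 genes followed these classes. It was 29.0% of the 465 mitotic cells of P (24.9 to 33.4) and 7 of the 29 mitotic cells of D (24.1%, 10.3 to 43.5). Among cells without a mitotic gene it was 2.08% in P (109 of 5251, 1.71 to 2.50) and 2.07% in D (84 of 4059, 1.65 to 2.56). In P it ranged from 1.48% (1.02 to 2.07) of the basal-low range to 7.14% (6.09 to 8.30) of the basal-high range, and in D from 1.75% (1.16 to 2.54) to 3.00% (2.17 to 4.03). Cells with at least 3 genes were mitotic in 47.7% of cases in P and 7.14% in D, and had no mitotic gene in 38.5% and 85.7%.

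**Figure D4:**
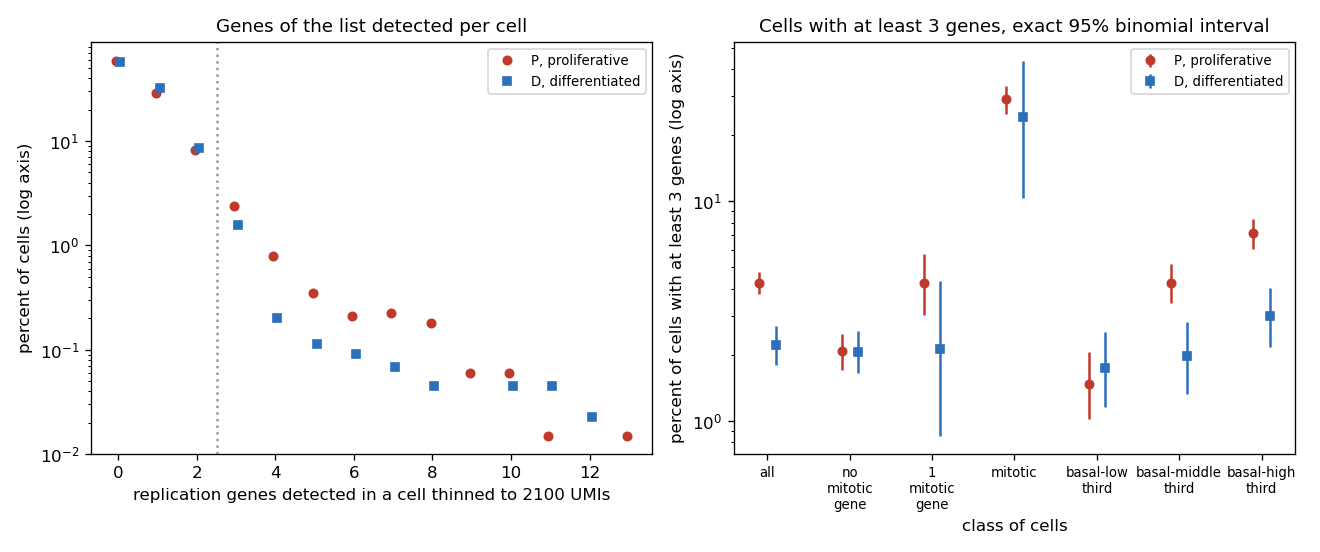
Left, percent of cells (log axis) by the number of the 32 genes detected in P (circles) and D (squares) after thinning to 2100 UMIs, with a dotted line at the threshold of 3 genes. Right, percent of cells with at least 3 genes (log axis) by class, with exact 95% binomial intervals: P lies above D over all cells (4.26% and 2.22%), and the libraries coincide in cells without a mitotic gene (2.08% and 2.07%). Mitotic genes were counted after thinning.

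Genes of the list were detected together to different degrees. Of the 39 thinned cells of P with a UMI of Mcm5, 46.2% (30.1 to 62.8) had at least 3 of the other 31 genes, against 3.96% of cells without it. For Mcm3 it was 40.0% (80 cells, 29.2 to 51.6), for Uhrf1 38.2% (55 cells, 25.4 to 52.3) and for Hells 32.6% (132 cells, 24.7 to 41.3). At the other end, the share was 6.00% (3.75 to 9.03) of the 350 cells with Slbp, 9.02% (5.80 to 13.2) of the 255 with Rfc2 and 10.0% (7.26 to 13.4) of the 399 with Lig1. In D it was 25.5% (14.7 to 39.0) of the 55 cells with Hells and 2.14% (0.79 to 4.59) of the 281 with Slbp, next to 1.64% of cells without Slbp.

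After thinning, the 109 cells of P with at least 3 genes and no mitotic gene were set beside the 5142 with fewer and no mitotic gene. Of 29 genes of the wider list with at least 100 UMIs, 9 were at least 2-fold higher in the 109 cells, where 5.19% of all 7093 genes outside the list were, and the median of the 29 was 0.37 (all genes 0.05). The highest were the checkpoint activator Topbp1 (13 and 108 UMIs, log2 2.51, 1.55 to 3.34) and the fork protection factor Tipin (14 and 126 UMIs, log2 2.39, 1.48 to 3.19). Of the 109 cells, 50.5% belonged to the basal-high range and 12.8% to the basal-low range. Mki67 and Top2a belong to neither the replication nor the mitotic list and were chosen for display after their values were seen. In the 109 cells Mki67 was at 13.1 CPM and Top2a at 8.74, levels that stand for 3 and 2 UMIs there, too few to resolve a difference. In the 5142 cells they were at 6.30 and 4.35. Both were at 0 in the 84 cells of D with at least 3 genes and no mitotic gene. In the 3975 cells of D with fewer genes they were at 2.88 and 0.96. In the 465 mitotic cells of P, Mki67 and Top2a were at 263 and 485. That class was picked by mitotic transcripts and the others by their absence, so this last difference was largely set by the choice of cells. No intervals were computed for these values.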

How the data were processed

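Single cells were prepared from dissociated organoids with a droplet kit that captures the 3′ end of transcripts (chemistry v3), 1 library per condition. The authors made the deposited UMI count matrices with bcl2fastq 2.19.0 and Cell Ranger 3.0.2 on GRCm38/mm10, and the counts are not normalized. Reads from the 3′ end do not scale with gene length, and levels were not compared between genes. The cell filter of the study was applied again, which left the number of cells the study gives for D and slightly fewer for P. Doublets were not called, and results were also computed without the 5% of cells with the most UMIs.

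Counts were summed over cells and divided by all UMIs (CPM, UMIs per 1000000). Intervals were exact Poisson for levels, exact binomial (Clopper-Pearson) for shares and exact conditional binomial for ratios, at 95%. UMIs that free RNA adds to cells were not modelled. With 1 library per group, genes were named at 2-fold, and shares over all genes used genes with at least 100 UMIs over both groups. These shares were computed for ratios on the plain scale only, and not for intervals. A value of 0 was replaced by 3 UMIs only in shares and medians over all genes. The code was tested on simulated data. Python 3.11.15, numpy 2.4.6, scipy 1.17.1, pandas 2.3.3 and matplotlib 3.10.9 were used. Gene models (GENCODE M21) showed no same-strand exon overlap for the 32 genes. The 32 genes, the wider list and the mitotic list were chosen with earlier results of these data known. All 32 genes are named. Of the wider list, the 4 lowest and 4 highest ratios of D to P among genes with at least 100 UMIs are named, and of other genes the 10 with the highest ratio in cells with at least 3 replication genes. Alternatives were other totals for scaling, other cell filters, thinning to 2100 UMIs, per-cell means, other folds and other class thresholds. The value of 1 marker gene is not reported here.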

Additional observations from a re-analysis of the deposited data

Results flagged for a closer look

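Replication transcripts were also present in the barcodes that the cell filter left out, which no main comparison uses and for which a count of 0 would have allowed 3 UMIs. The 1376 left-out barcodes of P held 579 UMIs of 31 of the 32 genes, 291 per 1000000 non-mitochondrial UMIs (267 to 315), and the kept cells 329 (322 to 336). The 2079 left-out barcodes of D held 768 UMIs of 30 genes, 371 per 1000000 (345 to 398), and the kept cells 302 (294 to 310). The list was thus lower in left-out than in kept barcodes of P and higher in those of D, beyond counting error in both.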

How the results depend on the processing

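Without thinning, fewer cells of P than of D had at least 3 genes, as given below. The median of cells without a mitotic gene (0.26, interval across 0) was -0.08 when mitochondrial and ribosomal protein genes were left out of the total and -0.18 with each library divided by the median gene's ratio. Under these 2 settings 10 genes were at least 2-fold lower in D in those cells in place of 4, the wider list had medians of -0.25 and -0.34 in place of 0.09, and Rrm1 was at -0.065 and -0.15, Slbp at -0.013 and -0.10 and, under the second, Dut at -0.017. Of the other values of single genes under the planned settings, 28 left the gene's interval, 7 of them with a change of sign (Fen1, Gins2, Mcm4, Mcm7 and Rfc2, whose intervals included 0), and 223 stayed within it. Over all cells, 17 genes were 2-fold lower under scaling by the median ratio. At a fold of 1.5 it was 17 genes and at a fold of 3 it was 4. With a minimum of 20 UMIs or none, 18 genes of the wider list were 2-fold lower in place of 6. A mitotic class from at least 1 mitotic gene gave a median of 1.18 in P in place of 1.99. In D, the median for mitotic cells was 3.21 after thinning, over the 24 genes with UMIs in 29 cells, and 2.96 with at least 3 mitotic genes, over 29 genes. The share of cells with several genes in P and D was 12.4% and 10.9% for at least 2 genes, 1.11% and 0.43% for at least 5, and 9.84% and 10.3% without thinning. Without the 6 genes with the most UMIs, a setting chosen after seeing the data, it was 1.69% and 0.63%. In cells without a mitotic gene the same settings gave 9.12% and 10.8%, 0.25% and 0.27%, 5.53% and 8.80%, and 0.59% and 0.49%. No paired analysis was possible because each condition had 1 library, which also limits what any difference can show. Depth limits the genes with few UMIs, with 5 of the 32 under 100 over both libraries.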

Other observations

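Other genes were ranked by their ratio in the 109 thinned cells of P with at least 3 replication genes and no mitotic gene. Among genes with at least 100 UMIs outside the replication, wider and mitotic lists, the 10 highest were Bmp2, Gsdmd, Stmn1, Chst15, Krt16, Gabpa, Inhba, Tpst1, Ndufaf7 and Cks1b. Each rested on 8 to 16 UMIs in these cells, with log2 ratios from 2.53 for Bmp2 (14 and 114 UMIs, 1.62 to 3.34) to 1.86 for Cks1b (12 and 156 UMIs, 0.88 to 2.71). Stmn1, a regulator of microtubule assembly, had 15 and 151 UMIs (log2 2.23, 1.36 to 3.00). They were picked as the highest once the wider and mitotic lists were also left out, so that their ratios are a description of these cells only.

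The 16 replication genes with more UMIs had a median log2 ratio of D to P of 0.00 and 3 of them were at least 2-fold lower in D, whereas the 16 with fewer UMIs had a median of -0.75 and 7 that were 2-fold lower. The pseudogene Pcna-ps2 had 2 UMIs in P and 6 in D.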
